A study of Mus musculus with 17 samples.

Results

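Ribosome-bound RNA of cortical neurons was compared between 5 male mice with experimental autoimmune encephalomyelitis (EAE) and 4 male control mice, which are 9 of the 17 mice of the series. The comparison covered 20924 genes of the 39017 gene IDs counted. They were the genes of chromosomes 1 to 19 with at least 1 count in 5 or more of these 9 libraries. That minimum left out 13926 of 34850 autosomal IDs. A gene counted only in the 5 EAE libraries could pass it, and a gene counted only in the 4 control libraries could not. Male EAE mice were adult C57BL/6J mice given a peptide of myelin oligodendrocyte glycoprotein in complete Freund's adjuvant with Mycobacterium tuberculosis, a booster, and pertussis toxin, and were taken in the chronic stage. Male control mice were healthy males of like age. Mice of both groups carried Cre recombinase under the promoter of neuron-specific enolase (NSE, the Eno2 gene) and the RiboTag allele, in which Cre puts an HA tag on the ribosomal protein Rpl22. RNA was isolated from cortex with an antibody to HA, and each mouse gave 1 library. The NSE promoter is active in neurons, but how evenly types of neuron carried the tag was not measured here, and staining in the study did not place the tag in interneurons with parvalbumin. Input RNA, taken ahead of the pull-down, was not analysed here, so the cells behind a change are not identified, and fewer cells of a type cannot be told apart from less RNA per cell.

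EAE is a mouse model of multiple sclerosis in which T cells against myelin enter the brain and spinal cord. Interferons released by such cells switch on genes of antigen presentation and of defence against viruses and intracellular parasites, in immune cells as well as in cells of the brain. Pyramidal neurons of the cortex signal with glutamate and interneurons with GABA, and the mix of receptor subunits, ion channels and adhesion proteins that a neuron makes sets how it fires and to which cells it connects.

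The labelled cell type was checked against its markers. Snap25, a protein of vesicle fusion, had 5108 to 5730 CPM in male EAE mice and 4444 to 5160 CPM in male control mice. The vesicular glutamate transporter Slc17a7 had 1833 to 2141 CPM in male EAE mice and 1539 to 1930 CPM in male control mice. RNA of glia was also in the libraries, since Mbp of myelin had 3680 to 4339 CPM in male EAE mice and 3891 to 4278 CPM in male control mice and the astrocyte glutamate transporter Slc1a2 had 2684 to 3060 CPM in male EAE mice and 2465 to 3687 CPM in male control mice. CPM is a count scaled to a common library size with TMM (trimmed mean of M values) factors and is not divided by gene length. Eno2, whose promoter drives Cre, had 1100 to 1347 CPM in male EAE mice and 1310 to 1438 CPM in male control mice and was not called (log2 fold change -0.11 ± 0.08, SE, adjusted p = 0.33). Rpl22, the tagged gene, had 49.1 to 64.2 CPM in male EAE mice and 69.9 to 91.9 CPM in male control mice without overlap and was lower (log2 fold change -0.41 ± 0.10, SE, adjusted p = 0.0113). Its endogenous and tagged forms cannot be told apart in these counts.

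Some properties of the libraries separated the groups. Total counts were 70613567 to 76768267 in male EAE and 85800542 to 98433383 in male control mice (p = 0.00794 by a two-sided exact permutation test, the lowest value that groups of 5 and 4 can give). The slope of log2 CPM on log2 gene length was 0.262 to 0.376 in male EAE and 0.0611 to 0.2612 in male control mice (p = 0.00794 by the same exact test). Among the 12893 genes whose mean log2 CPM exceeded 1, 77.5% of the variance lay on the first principal component, where male EAE libraries had scores of -36 to -3.7 and male control libraries 4.7 to 62.3. Control 4 and EAE 3 stood apart in that ordering. Among the genes of this level that were higher in EAE, control 4 had the lowest control value in 84.6% and EAE 3 the lowest EAE value in 80.4%. Among those that were lower, control 4 had the highest control value in 91.5% and EAE 3 the highest EAE value in 73.6%. The part of depth, gene length and these libraries in the results was not tested, and counts and medians with a length correction or without single libraries stand beside lists that they move strongly.

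EdgeR's quasi-likelihood test was fitted to these 9 libraries, and genes with a false discovery rate (FDR, the Benjamini-Hochberg adjusted p over the 20924 genes) under 0.1 and a log2 fold change beyond 0.25 were called. Log2 fold changes are male EAE over male control, and every adjusted p below comes from this test. The test called 8546 genes (40.8% of those tested), of which 4389 (21.0%) were higher and 4157 (19.9%) lower in male EAE than in male control mice. Changes were mostly modest: 2674 genes rose and 2306 fell beyond 0.5 on the log2 scale, 750 and 367 beyond 1, and 163 and 45 beyond 2. Of the changes beyond 2, only 4 rises and 0 falls were in genes with a mean log2 CPM above 1. The 5 EAE values all lay above or all below the 4 control values in 5135 genes (24.5%), 4689 of them called. The median log2 fold change over all genes tested was 0.04. With 1 surrogate variable, a covariate estimated from the counts that ran from 0.004 to 0.365 in male EAE and from -0.742 to 0.0806 in male control mice, 37 genes were called higher and 19 lower, and 55 of these 56 were among the 8546. Among the lists below and in the closing observations, that fit called 5 antibody, 3 class I, 3 GTPase and 3 T cell genes higher, 1 gene each of class II presentation, interferon-stimulated genes, neurexin partners and axon guidance higher, and 2 immediate early, 1 oxidative phosphorylation and 1 cholesterol synthesis gene lower. Counts in the sections that follow therefore hold for the fit without that covariate. Under it, 21.0% higher and 19.9% lower are the shares over all genes tested. They are no matched background for a list of abundant, long or short genes. Of the 12893 genes whose mean log2 CPM exceeded 1, 3391 were higher and 3591 lower, and their shares by exon length are given below. The names below come from a fixed rule by size of change or level, and CPM values are in the order of mouse number, EAE 1 to 5 and control 1 to 4.

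**Figure D1:**
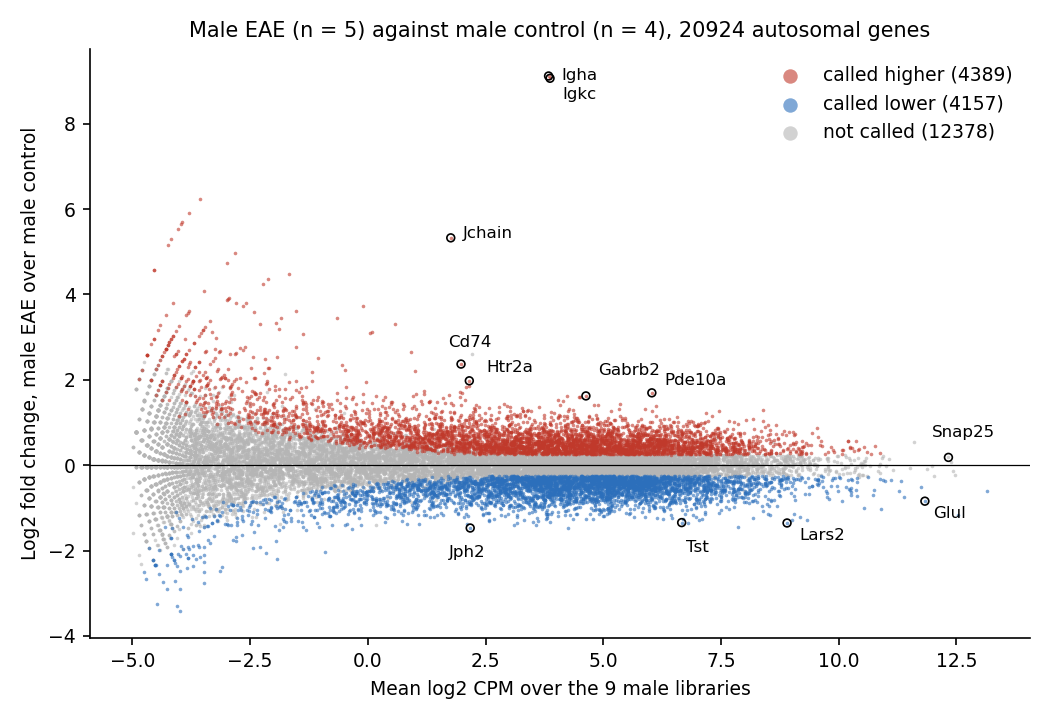
Log2 fold change, male EAE (n = 5) over male control (n = 4), against mean log2 CPM for the 20924 autosomal genes, 1 point per gene. Genes called higher are red (4389), called lower blue (4157) and not called grey. Named points are genes picked from those in the text, such as Igha and Htr2a above and Jph2 and Tst below, and are not the largest changes of all genes plotted.

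In genes whose groups did not overlap and whose log2 CPM averaged more than 1, the largest rises outside the immune genes included receptors and signaling proteins. Htr2a, a serotonin receptor of pyramidal neurons (ENSMUSG00000034997, chr14:74640840-74709494 in GRCm38), had 6.37, 7.49, 3.47, 9.14 and 6.91 CPM in male EAE mice, against 1.79, 2.32, 1.96 and 0.603 CPM in male control mice (log2 fold change 1.98 ± 0.32, SE). Sv2c, a synaptic vesicle protein, had 5.17, 7.94, 3.46, 7.49 and 8.56 CPM in male EAE mice, against 1.68, 2.02, 1.499 and 1.96 CPM in male control mice (1.86 ± 0.25). Gabrb2, a β subunit of GABA-A receptors, had 32.4, 37.6, 20.2, 42.2 and 44.8 CPM in male EAE mice, against 10.6, 16.7, 13.5 and 5.11 CPM in male control mice (1.62 ± 0.30). No EAE value of these 3 genes fell within the control range, and EAE 3 was the lowest of the EAE mice each time. Chrm3, a muscarinic acetylcholine receptor, had 34.9, 33.5, 18.3, 38.7 and 36.3 CPM in male EAE mice, against 10.6, 17.99, 10.7 and 3.19 CPM in male control mice (1.60 ± 0.36). Acvr1c, an activin-type receptor, had 22.6, 32.0, 15.3, 30.2 and 34.7 CPM in male EAE mice, against 7.99, 12.1, 8.40 and 6.21 CPM in male control mice (1.63 ± 0.24). Mme, the peptidase neprilysin, had 2.73, 3.50, 1.44, 3.36 and 3.53 CPM in male EAE mice, against 1.22, 0.761, 0.930 and 0.729 CPM in male control mice (1.67 ± 0.27). Their adjusted p ranged over 0.00554 to 0.00742, and in each of the 6 genes EAE 3 again stood nearest to the controls.

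The 12 largest falls under the same limits included mitochondrial, membrane-scaffold and filament proteins. Jph2, a junctophilin that ties the endoplasmic reticulum to the cell membrane, had 3.74, 2.20, 2.78, 1.41 and 2.31 CPM in male EAE mice, against 6.47, 4.75, 5.10 and 11.6 CPM in male control mice (log2 fold change -1.47 ± 0.29, SE). Tst, a mitochondrial sulfurtransferase (ENSMUSG00000044986, chr15:78399556-78405907), had 68.6, 49.6, 74.8, 45.6 and 62.4 CPM in male EAE mice, against 132, 115, 127 and 238 CPM in male control mice (-1.34 ± 0.21). Slc9a3r1, a scaffold beneath the cell membrane, had 86.6, 64.4, 116, 62.9 and 71.7 CPM in male EAE mice, against 186, 143, 171 and 282 CPM in male control mice (-1.28 ± 0.21). Control 4 had the highest value in all 3. Lars2, the mitochondrial leucyl-tRNA synthetase, had 187, 318, 344, 189 and 378 CPM in male EAE mice, against 469, 570, 912 and 943 CPM in male control mice (-1.35 ± 0.25), so the EAE values lay at or under 378 CPM and the control values at or over 469 CPM. The noncoding transcript AW047730 had 73.1, 59.1, 77.1, 52.7 and 70.1 CPM in male EAE mice, against 170, 120, 150.4 and 235 CPM in male control mice (-1.34 ± 0.17), and Pdlim4, an actin-binding LIM protein, had 7.81, 5.85, 11.04, 5.39 and 6.89 CPM in male EAE mice, against 16.6, 13.1, 14.1 and 29.8 CPM in male control mice (-1.31 ± 0.26). Bfsp2, a filament protein known from the lens, fell by 1.30 ± 0.29. Mir7654 (log2 fold change -1.37) and the pseudogene copy Gng5-ps (-1.28) complete the 12, with Nupr1, Id1 and S100b described below. Reads of these last IDs, a microRNA and a pseudogene, can come from an overlapping or parental gene. Adjusted p values of the 9 falls named here lay within 0.00554 to 0.00701.

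Part of the genes of antigen presentation were higher in male EAE mice. Of 21 genes of class I presentation 9 were higher and 2 lower (median log2 fold change 0.68), and of 10 genes of class II presentation 6 were higher and 0 lower (median 1.29). H2-D1, a classical class I molecule that shows peptides to CD8 T cells, had 45.9, 71.2, 98.9, 34.9 and 34.5 CPM in male EAE mice, against 20.2, 24.96, 20.8 and 18.8 CPM in male control mice (log2 fold change 1.43 ± 0.28, SE). H2-Q4 had 1.03, 2.83, 7.18, 0.635 and 0.693 CPM in male EAE mice, against 0.276, 0.376, 0.197 and 0.126 CPM in male control mice (3.32 ± 0.83). H2-T23, a nonclassical class I molecule that binds receptors of natural killer cells, had 12.6, 11.9, 14.4, 13.2 and 11.4 CPM in male EAE mice, against 7.78, 7.16, 7.26 and 6.08 CPM in male control mice (0.85 ± 0.11). Values of H2-D1 were spread over 34.5 to 98.9 CPM among EAE mice, whereas the EAE values of H2-T23 lay close together and all above the controls. Psmb8, a subunit of the immunoproteasome, was higher with overlap (0.635 to 6.17 CPM in male EAE mice and 0.788 to 1.01 CPM in male control mice). The peptide-loading chaperones Calr and Pdia3 were not called (log2 fold changes 0.05 and 0.00). For class II, Cd74, the invariant chain, had 2.44, 7.95, 14.2, 3.64 and 2.53 CPM in male EAE mice, against 0.987, 1.32, 1.42 and 1.005 CPM in male control mice (2.37 ± 0.52). H2-Aa, a chain of I-A, had 0.572 to 3.73 CPM in male EAE mice and 0.0754 to 0.294 CPM in male control mice, and H2-Ab1, the other chain, 0.520 to 3.68 CPM in male EAE mice and 0.126 to 0.276 CPM in male control mice. H2-Eb1, a chain of I-E, had 0.910 to 4.95 CPM in male EAE mice and 0.650 to 1.07 CPM in male control mice. H2-DMa, which loads peptides, and Ciita, the regulator of class II genes, were not called (-0.03 and 0.21). Across the 8 called genes, the adjusted p was 0.00554 to 0.0825. H2 genes are near-identical copies, and how the counting divided their reads is uncertain. Without EAE 3 and control 4 together, 5 class I genes were called higher, and without EAE 3 alone the class I median was 0.30. The call of Psmb8 was lost without EAE 2, EAE 3, control 1, control 2, control 3 or control 4 (adjusted p = 0.119 to 0.251), and that of H2-Eb1 without EAE 2 or EAE 3 (adjusted p = 0.106 to 0.107).

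Interferon-stimulated genes followed the same order of mice. Of 27 such genes 14 were higher and 0 lower (median log2 fold change 0.64), and EAE 3 had the highest EAE value in 24 of them. Oasl2, a relative of the enzymes that sense double-stranded RNA, had 1.61, 2.94, 8.61, 1.06 and 1.03 CPM in male EAE mice, against 0.735, 0.853, 0.547 and 0.477 CPM in male control mice (log2 fold change 2.22 ± 0.64, SE). Ifih1, the RNA sensor MDA5, had 2.98, 3.41, 3.47, 3.70 and 3.93 CPM in male EAE mice, against 2.30, 2.95, 2.002 and 1.04 CPM in male control mice (0.74 ± 0.22). Dtx3l, a ubiquitin ligase, had 5.51, 7.34, 7.88, 6.43 and 6.86 CPM in male EAE mice, against 3.95, 4.83, 4.63 and 3.47 CPM in male control mice (0.69 ± 0.14). Isg15, a ubiquitin-like modifier, was higher with overlap (0.720 to 2.94 CPM in male EAE mice and 0.677 to 0.854 CPM in male control mice). Stat2, which carries the interferon signal to the nucleus, had 10.4, 9.92, 13.4, 10.96 and 10.9 CPM in male EAE mice, against 10.7, 10.9, 11.3 and 10.4 CPM in male control mice and was not called (0.04 ± 0.10). Samhd1, which limits nucleotides for viruses, was not called either (0.04 ± 0.11). For the 4 called genes the adjusted p was 0.00595 to 0.0656, and the count of genes called higher was 6 without EAE 3, 8 without EAE 2 and 8 without control 3. Without EAE 3 the median was 0.33. Isg15 was not called without EAE 2, EAE 3, control 1 or control 3 (adjusted p = 0.111 to 0.136).

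Guanylate-binding and immunity-related GTPases, which interferon switches on and which attack the vacuoles of intracellular parasites, were called higher in 10 of 14 genes and lower in 0 (median log2 fold change 1.63). EAE 3 had the highest EAE value in all 14. Igtp had 9.53, 11.6, 19.3, 5.16 and 7.96 CPM in male EAE mice, against 4.90, 6.95, 4.76 and 3.37 CPM in male control mice (log2 fold change 1.10 ± 0.32, SE, adjusted p = 0.0205). Irgm2 had 2.07, 4.43, 7.35, 0.931 and 1.62 CPM in male EAE mice, against 1.27, 1.15, 0.777 and 0.955 CPM in male control mice (1.66 ± 0.51, adjusted p = 0.025). Irgm1 had 10.4, 14.1, 20.3, 9.04 and 9.89 CPM in male EAE mice, against 7.93, 9.77, 8.66 and 8.99 CPM in male control mice (0.53 ± 0.21, adjusted p = 0.0691). In all 3 genes EAE 3 was highest, EAE 2 next, and EAE 4 within the control range or close to it. Gbp7 and Gbp3 were not called, with 2.44 to 6.09 CPM in male EAE mice and 2.83 to 4.49 CPM in male control mice for Gbp7 and 0.720 to 5.74 CPM in male EAE mice and 1.25 to 2.16 CPM in male control mice for Gbp3. Without EAE 3 and control 4 together 6 GTPase genes were called higher, and these genes are copies of each other, so the division of reads among them is uncertain. Irgm1 was not called without EAE 2, EAE 3, control 1, control 3 or control 4 (adjusted p = 0.103 to 0.158).

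Promoters of these genes are shown because interferon acts in part through the interferon-stimulated response element (ISRE) and in part through STAT sites. The letters GAAANNGAA were searched on both strands in 300 bases, 250 before to 50 after the start of each gene, taken from RefSeq on GRCm38.p6. They were found in 7 of 8 GTPase promoters (87.5%), 11 of 19 of the interferon-stimulated genes (57.9%) and 5 of 18 of the class I genes (27.8%), against 8.57% of 27025 promoters of all genes. Among all genes called higher the share was 7.27%, among those called lower 6.86% and among those not called 7.04%. The STAT letters TTCNNNGAA, the same on both strands and able to share bases with the ISRE letters, were found in 4 of 8 GTPase promoters (50%), 6 of 19 of the interferon-stimulated genes (31.6%) and 1 of 18 of the class I genes (5.56%), against 8.47% of all promoters. The ISRE match is in capitals, the other letters are in lower case, and each sequence runs 5′ to 3′ along the strand of its gene. Irgm2 (chr11:58214727-58215026, plus strand), Igtp (chr11:58199306-58199605, plus strand) and H2-T23 (chr17:36032652-36032951, minus strand) were higher in male EAE mice, whereas Gbp7 (chr3:142530086-142530385, plus strand) and Stat2 (chr10:128270248-128270547, plus strand) were not called.
Irgm2: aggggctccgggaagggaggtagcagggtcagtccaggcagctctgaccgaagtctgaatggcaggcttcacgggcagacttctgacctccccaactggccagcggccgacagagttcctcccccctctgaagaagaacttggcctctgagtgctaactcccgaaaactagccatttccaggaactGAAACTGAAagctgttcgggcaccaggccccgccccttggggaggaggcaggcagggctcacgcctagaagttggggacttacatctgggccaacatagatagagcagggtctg
Igtp: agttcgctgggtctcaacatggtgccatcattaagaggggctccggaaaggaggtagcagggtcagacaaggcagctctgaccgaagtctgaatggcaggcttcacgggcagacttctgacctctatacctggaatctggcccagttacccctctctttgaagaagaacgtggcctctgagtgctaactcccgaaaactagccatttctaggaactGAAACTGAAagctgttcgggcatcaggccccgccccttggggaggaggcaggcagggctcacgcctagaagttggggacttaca
H2-T23: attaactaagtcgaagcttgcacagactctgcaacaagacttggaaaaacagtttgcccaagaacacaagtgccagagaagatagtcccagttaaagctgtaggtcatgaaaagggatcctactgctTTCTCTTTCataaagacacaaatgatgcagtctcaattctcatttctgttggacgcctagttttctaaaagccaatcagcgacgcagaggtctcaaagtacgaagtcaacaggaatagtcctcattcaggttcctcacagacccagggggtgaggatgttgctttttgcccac
Gbp7: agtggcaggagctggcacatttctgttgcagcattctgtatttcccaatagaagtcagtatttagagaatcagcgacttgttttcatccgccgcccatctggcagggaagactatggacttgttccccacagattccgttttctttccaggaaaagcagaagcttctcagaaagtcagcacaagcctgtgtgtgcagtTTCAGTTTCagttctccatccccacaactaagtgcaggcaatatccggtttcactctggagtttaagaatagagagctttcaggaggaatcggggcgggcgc
Stat2: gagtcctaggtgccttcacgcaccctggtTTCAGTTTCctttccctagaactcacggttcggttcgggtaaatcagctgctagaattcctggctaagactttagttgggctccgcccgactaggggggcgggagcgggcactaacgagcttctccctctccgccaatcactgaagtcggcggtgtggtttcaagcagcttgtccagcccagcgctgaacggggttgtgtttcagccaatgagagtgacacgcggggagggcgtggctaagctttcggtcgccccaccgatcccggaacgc
The match began 64 bases before the start in Irgm2, 34 in Igtp, 123 in H2-T23, 52 in Gbp7 and 221 in Stat2. Genes with the letters were thus called and not called, and a match is a description of the letters and no measure of binding.

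Antibody and T cell genes had some of the largest fold changes at some of the lowest levels. Igha, the heavy chain of immunoglobulin A, had 7.79, 25.5, 89.3, 2.82 and 3.21 CPM in male EAE mice, against 0, 0.0406, 0.131 and 0 CPM in male control mice (log2 fold change 9.12 ± 1.57, SE), which rests on 16 counts in the 4 control libraries together. Igkc, a light chain, had 9.41, 21.96, 93.3, 3.60 and 3.17 CPM in male EAE mice, against 0.0230, 0.0914, 0.0547 and 0.0126 CPM in male control mice (9.06 ± 1.52). Jchain, which joins antibody units, had 2.29, 5.15, 21.2, 0.494 and 0.706 CPM in male EAE mice, against 0.115, 0.233, 0.0875 and 0.151 CPM in male control mice (5.33 ± 1.27). EAE 3 was highest in all 3 genes, EAE 2 the second highest, and EAE 4 and EAE 5 the lowest of the EAE mice though above every control. Of 17 antibody and plasma cell genes 6 were higher and 0 lower (median 0.84). Ighm, the heavy chain of immunoglobulin M, had 59.4 to 75.5 CPM in male EAE mice and 34.9 to 76.9 CPM in male control mice and the plasma cell regulator Xbp1, also active in other cells, 65.7 to 81.9 CPM in male EAE mice and 65.3 to 82.6 CPM in male control mice, neither called. Of 17 T cell genes 11 were higher and 0 lower (median 2.04). Cd3e, a chain of the T cell receptor complex, was higher with 0.130, 0.432, 1.403, 0.0564 and 0.177 CPM in male EAE mice, against 0.0689, 0.0203, 0.0438 and 0.0251 CPM in male control mice. Cd247, the zeta chain of that complex, had 1.78, 2.05, 2.05, 2.33 and 2.47 CPM in male EAE mice, against 1.15, 1.98, 1.43 and 1.05 CPM in male control mice (0.59 ± 0.20). Cd4 had 14.2 to 41.7 CPM in male EAE mice and 10.2 to 29.4 CPM in male control mice and Lck 1.44 to 2.43 CPM in male EAE mice and 1.38 to 2.22 CPM in male control mice, and neither was called. The adjusted p of the 5 called genes ranged over 0.00554 to 0.0336. Summed over 7 markers of B and plasma cells, 2 of 5 tested being called higher, the level without TMM factors was 4.14 to 118 CPM in male EAE and 0.217 to 0.396 CPM in male control mice, with Cd79a, Cd79b, Ms4a1 and Mzb1 among those at 0 in at least 1 library, and over 5 T cell markers, 3 of them called higher, it was 17.8 to 43.4 CPM in male EAE and 10.4 to 27.3 CPM in male control mice, with Cd3d and Cd3g at 0 in at least 1 library. Cd4, which was not called, made up nearly all of the T cell sum. The part of such cells in these results was not tested. Without EAE 3 and control 4 together 6 T cell genes were called higher, and without EAE 3 alone the median was 1.09.

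**Figure D2:**
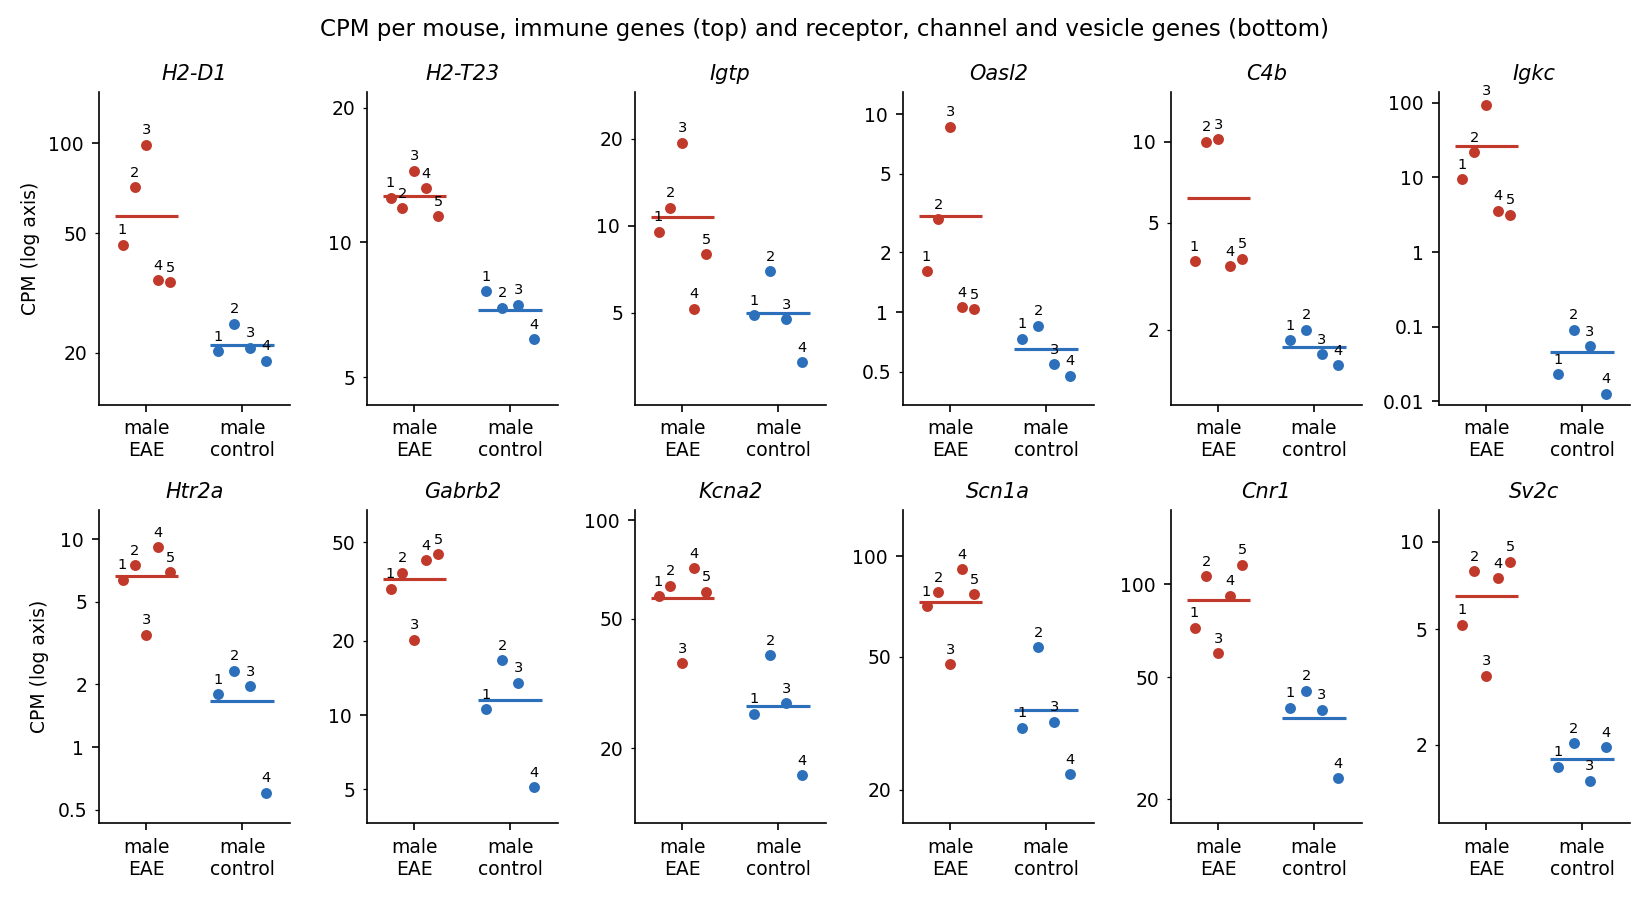
CPM per mouse on a log axis for 6 immune genes (top row) and 6 receptor, channel and vesicle genes (bottom row), male EAE mice 1 to 5 (red) left of male control mice 1 to 4 (blue), each point 1 library with its mouse number and each bar the group mean. EAE 3 is the highest EAE mouse for H2-D1, Igtp, Oasl2 and Igkc and the lowest for Htr2a, Gabrb2, Kcna2, Scn1a, Cnr1 and Sv2c.

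Complement genes, whose products tag surfaces for removal and in the brain take part in loss of synapses, were higher in 12 of 21 and lower in 0 (median log2 fold change 0.89). C4b had 3.60, 10.01, 10.2, 3.44 and 3.67 CPM in male EAE mice, against 1.82, 2.0, 1.62 and 1.47 CPM in male control mice (log2 fold change 1.83 ± 0.37, SE). C1qa had 2.74, 6.62, 8.42, 7.62 and 3.04 CPM in male EAE mice, against 2.26, 2.35, 3.14 and 3.71 CPM in male control mice (0.99 ± 0.32), and C1qb, another chain of C1q, 1.25, 5.78, 6.83, 6.38 and 2.25 CPM in male EAE mice, against 1.81, 2.12, 1.61 and 2.99 CPM in male control mice (1.08 ± 0.42). EAE 2 and EAE 3 were the highest for C4b, and EAE 1 lay within or near the control range for C1qa and C1qb. Csmd3, a large neuronal protein with complement-control repeats, had 2.40, 2.80, 2.46, 3.12 and 3.84 CPM in male EAE mice, against 1.26, 2.21, 1.33 and 0.892 CPM in male control mice (1.02 ± 0.24). Its relative Csmd2 (-0.02) and clusterin, Clu (-0.10), were not called. Adjusted p values of the 4 called genes lay within 0.00595 to 0.0612. C4b and C4a are near-identical copies. Among 14 chemokines and cytokines 3 were higher and 2 lower, near or under the 21.0% and 19.9% over all genes. Cx3cl1, the neuronal chemokine read by microglia, had 1409, 1381, 1284, 1505 and 1459 CPM in male EAE mice, against 1089, 1126, 1215 and 1046 CPM in male control mice (0.33 ± 0.08, adjusted p = 0.00824). Il18, an inflammatory cytokine, had 9.31, 7.65, 12.3, 6.76 and 7.89 CPM in male EAE mice, against 16.7, 13.3, 15.2 and 26.9 CPM in male control mice (-1.03 ± 0.21, adjusted p = 0.00611). Csf1, a growth factor of microglia, was higher (0.32 ± 0.10) and Tgfb2 lower (-0.36 ± 0.15), while Il33 and Il34 were not called (-0.19 and -0.09). C1qb was not called without EAE 2, EAE 3, EAE 4, control 1 or control 3 (adjusted p = 0.126 to 0.147). The call of Tgfb2 was lost without EAE 2, EAE 5, control 2, control 3 or control 4 (adjusted p = 0.112 to 0.191), and that of Csf1 without control 4 (adjusted p = 0.0857), where its log2 fold change was 0.22 and thus under the 0.25 required.

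Receptors for fast and slow transmission were higher in part. All 7 metabotropic glutamate receptors were called higher (median log2 fold change 0.57), as were 8 of 13 GABA receptor subunits with 1 lower (median 0.35) and 10 of 17 NMDA, AMPA and kainate receptor subunits with 2 lower (median 0.34). Grm5, a receptor coupled to calcium release, had 79.5, 105, 69.5, 102 and 101 CPM in male EAE mice, against 47.1, 63.1, 44.6 and 38.2 CPM in male control mice (log2 fold change 0.92 ± 0.16, SE). Grm7, a presynaptic receptor, had 26.6, 30.5, 20.7, 31.4 and 30.7 CPM in male EAE mice, against 13.3, 18.8, 14.1 and 8.20 CPM in male control mice (1.04 ± 0.20). Control 2 was the highest control in both, and no values overlapped between the groups. Grm8, Grm2 and the α subunit Gabra4 of GABA-A receptors were higher too (0.85 ± 0.14, 0.57 ± 0.15 and 0.93 ± 0.17), while the metabotropic GABA receptor Gabbr1 and the δ subunit Gabrd were not called (0.09 and 0.10). Grin2b, an NMDA receptor subunit that dominates early in life, had 480, 599, 391.6, 598 and 639 CPM in male EAE mice, against 310, 394, 336 and 268 CPM in male control mice (0.73 ± 0.15). Grin2a, which dominates in the adult, had 2.34, 2.73, 1.61, 3.29 and 4.12 CPM in male EAE mice, against 0.953, 1.78, 1.29 and 0.791 CPM in male control mice (1.2 ± 0.29), and the AMPA receptor subunit Gria4 39.5, 44.1, 29.5, 46.8 and 45.0 CPM in male EAE mice, against 24.9, 31.6, 23.5 and 18.4 CPM in male control mice (0.73 ± 0.16). Grin2c moved the other way, with 59.6, 43.5, 75.3, 56.2 and 63.3 CPM in male EAE mice, against 84.3, 99.1, 94.0 and 106 CPM in male control mice (-0.69 ± 0.13). Per kb of exon Grin2b had 21.8 CPM per kb in male EAE and 13.2 CPM per kb in male control mice, and Grin2a 0.157 CPM per kb in male EAE and 0.0671 CPM per kb in male control mice. Grik5 and Grin3a were not called (-0.23 and -0.06). After a length correction 6 of the NMDA, AMPA and kainate subunits were higher and 4 lower (median 0.10). Over the 10 called genes named here the adjusted p ranged over 0.00554 to 0.013, Gabrb2 included.

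Ion channels were higher in large numbers: 26 of 35 potassium channel genes with 2 lower (median log2 fold change 0.57) and 22 of 27 sodium, calcium and HCN channel genes with 2 lower (median 0.46). Kcna2, a voltage-gated channel of axons that limits firing, had 58.5, 63.0, 36.4, 71.4 and 60.4 CPM in male EAE mice, against 25.5, 38.6, 27.6 and 16.5 CPM in male control mice (log2 fold change 1.10 ± 0.23, SE). Kcnj6, a GIRK channel opened by G proteins, had 11.9, 13.3, 9.18, 16.6 and 15.2 CPM in male EAE mice, against 5.38, 7.14, 5.93 and 3.24 CPM in male control mice (1.28 ± 0.21). Kcnt2, a channel gated by sodium, had 3.21, 4.71, 2.18, 6.18 and 5.11 CPM in male EAE mice, against 1.32, 2.49, 0.897 and 0.930 CPM in male control mice (1.58 ± 0.34). EAE 3 and control 2 lay closest to each other in Kcna2 and Kcnt2, where the groups overlapped. Kcnk9, a leak channel, was higher as well (1.5 ± 0.38), and Kcnj4 and Kcnh3 were not called (0.16 and 0.09). Scn1a, a sodium channel of interneurons, had 70.9, 78.2, 47.5, 91.5 and 77.2 CPM in male EAE mice, against 30.7, 53.4, 31.9 and 22.2 CPM in male control mice (1.08 ± 0.23). Cacna1e, the R-type calcium channel, had 44.2, 54.9, 41.5, 69.1 and 65.2 CPM in male EAE mice, against 24.4, 32.9, 28.1 and 19.8 CPM in male control mice (1.06 ± 0.18). The EAE values of Cacna1e all lay above the controls, while those of Scn1a overlapped. Cacnb4, an auxiliary calcium channel subunit, was higher (0.85 ± 0.17), and Cacnb3 and Hcn2 were not called (0.03 and 0.09). Across the 7 called genes, the adjusted p was 0.00554 to 0.0111. Channel genes are long, with a median exon length of 6895 and 9862 bases in these lists against 3324 over all genes tested. With a length correction 22 potassium channel genes were higher and 3 lower (median 0.43), and 10 of the sodium, calcium and HCN genes were higher and 1 lower (median 0.19).

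Receptors for serotonin, dopamine, opioids and cannabinoids were higher in 14 of 21 and lower in 0 (median log2 fold change 0.76). Cnr1, the cannabinoid receptor of presynaptic terminals, had 72.4, 106, 59.8, 92.1 and 116 CPM in male EAE mice, against 39.7, 45.1, 39.2 and 23.4 CPM in male control mice (log2 fold change 1.27 ± 0.21, SE). Oprd1, the δ opioid receptor, had 19.9, 20.7, 12.7, 25.2 and 24.99 CPM in male EAE mice, against 7.85, 11.9, 10.03 and 5.39 CPM in male control mice (1.23 ± 0.23), and Oprk1, the κ opioid receptor, 5.02, 9.12, 2.64, 7.99 and 9.15 CPM in male EAE mice, against 3.44, 2.62, 2.68 and 1.32 CPM in male control mice (1.42 ± 0.34). Groups overlapped in Oprk1, where EAE 3 had a control-like value. Htr6 and Htr1d were not called (0.06 and 0.20). Enzymes of cyclic nucleotides were higher in 19 of 31 and lower in 2 (median 0.35). Pde10a, a phosphodiesterase most abundant in the striatum (ENSMUSG00000023868, chr17:8525372-8986648), had 65.5, 129, 39.8, 112 and 126 CPM in male EAE mice, against 32.2, 28.7, 30.1 and 25.6 CPM in male control mice (1.70 ± 0.29). Adcy9, an adenylyl cyclase, had 24.6, 30.6, 19.8, 35.6 and 29.3 CPM in male EAE mice, against 9.99, 16.99, 13.01 and 5.84 CPM in male control mice (1.28 ± 0.25). Pde7b and Pde4d were also higher (0.99 ± 0.20 and 0.82 ± 0.20), and Prkar1b and Prkaca, subunits of protein kinase A, were not called (-0.23 and -0.19). For the 7 called genes the adjusted p was 0.00554 to 0.00957.

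Genes that mark projection neurons of the striatum, a region beneath the cortex, varied widely among the male EAE mice. Of 22 such genes 11 were higher and 0 lower (median log2 fold change 0.45), and EAE 3 had the lowest EAE value in all 22. Drd1, a dopamine receptor, had 22.7, 52.3, 12.5, 32.4 and 38.6 CPM in male EAE mice, against 18.5, 10.99, 15.5 and 17.9 CPM in male control mice (log2 fold change 1.01 ± 0.32, SE, adjusted p = 0.0284), and Gpr6 8.19, 17.4, 3.85, 12.5 and 12.5 CPM in male EAE mice, against 5.46, 2.60, 4.77 and 5.33 CPM in male control mice (1.27 ± 0.35, adjusted p = 0.0166). EAE 2 was highest and EAE 3 lowest of the EAE mice in both, and EAE 3 lay within the control range. Ppp1r1b (DARPP-32) had 755, 944, 569, 692 and 692 CPM in male EAE mice, against 883, 540, 783 and 1208 CPM in male control mice and the opioid precursor Penk 406, 692, 248, 493 and 434 CPM in male EAE mice, against 338, 180, 289 and 448 CPM in male control mice, and neither was called (-0.22 and 0.53). The part of tissue outside the cortex in these values was not tested. Without EAE 3 and control 4 together 18 of the striatal genes were called higher.

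Genes of synaptic adhesion and of axon guidance were higher in most cases. Of neurexins, neuroligins and their partners 20 of 28 were higher and 1 lower (median log2 fold change 0.46), of cadherins and protocadherins outside the clusters 20 of 27 and 1 (median 0.55), and of guidance genes 25 of 40 and 0 (median 0.45). Nlgn1, a neuroligin of excitatory synapses, had 55.3, 66.04, 39.9, 67.9 and 63.2 CPM in male EAE mice, against 29.0, 37.6, 30.4 and 20.6 CPM in male control mice (log2 fold change 0.99 ± 0.18, SE). Slitrk1, a postsynaptic organizer, had 120, 144, 85.1, 139 and 135 CPM in male EAE mice, against 64.1, 79.7, 60.9 and 42.1 CPM in male control mice (1.01 ± 0.18). Sema3e, a secreted semaphorin, had 13.3, 16.2, 10.9, 14.6 and 15.7 CPM in male EAE mice, against 5.77, 7.19, 5.68 and 4.61 CPM in male control mice (1.28 ± 0.15). No value of these 3 genes overlapped between the groups. Sema3a, which repels growing axons, had 13.8 to 21.4 CPM in male EAE mice and 5.62 to 10.6 CPM in male control mice. Its co-receptor Plxna4 had 25.9 to 43.0 CPM in male EAE mice and 9.25 to 24.2 CPM in male control mice, and the ephrin receptor Epha4 91.0 to 170 CPM in male EAE mice and 49.4 to 101 CPM in male control mice. The cadherins Cdh9 and Cdh7 (1.10 ± 0.20 and 1.07 ± 0.19), Pcdh20 and Fat3 (1.16 ± 0.26 and 1.11 ± 0.23), the synaptic organizer Cbln4 (0.94 ± 0.17) and the contactin Cntn3 (0.94 ± 0.23) were higher. The presynaptic hub Nrxn2 was not called (-0.06), nor were Cdh22, Cdh4, Unc5a and Efna3 (0.02, 0.05, 0.14 and 0.04). The adjusted p of the 12 called genes ranged over 0.00554 to 0.00937. With a length correction 14 cadherins were higher and 2 lower, and of the guidance genes 21 were higher and 3 lower.

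Genes of vesicle release and of the postsynapse were partly higher. Of 30 vesicle and release genes 12 were higher and 3 lower (median log2 fold change 0.18), and of 21 postsynaptic scaffolds 10 and 2 (median 0.31). Syt1, the calcium sensor of release, had 1548, 1598, 1347, 1776 and 1472 CPM in male EAE mice, against 1093, 1161, 1078 and 816 CPM in male control mice (log2 fold change 0.58 ± 0.11, SE). Bsn, a protein of the active zone, had 300, 334, 296, 482 and 410 CPM in male EAE mice, against 180, 286, 242 and 104 CPM in male control mice (0.84 ± 0.25), and Sv2b 439, 533, 340, 498 and 485 CPM in male EAE mice, against 265, 282, 255 and 154 CPM in male control mice (0.94 ± 0.17). Snap25 had a log2 fold change of 0.18 ± 0.08 and Cplx2, a complexin, one of -0.14 ± 0.07, and neither was called. Shank1, a scaffold of the postsynaptic density, had 436, 509, 427, 674 and 560 CPM in male EAE mice, against 215, 432, 311 and 122 CPM in male control mice (0.95 ± 0.28). Control 2 lay within the EAE range for Shank1. Dlg2 and Dlgap2 were also higher (0.91 ± 0.30 and 0.84 ± 0.18), whereas Dlg4 (PSD-95) had 1385 to 1622 CPM in male EAE mice and 1386 to 1630 CPM in male control mice and was not called (0.01 ± 0.08), though it was lower with a length correction (log2 fold change -0.33). Without control 2, 5 vesicle genes were lower. With a length correction 8 vesicle genes were higher and 2 lower (median 0.06), as were 7 and 4 of the scaffolds, and without control 4 the vesicle median was 0.11. Camk2a, the main kinase of the postsynapse, had 3400, 3614, 3032, 4469 and 3525 CPM in male EAE mice, against 1784, 4056, 2627 and 1439 CPM in male control mice and was not called (0.54 ± 0.24, adjusted p = 0.101). Adjusted p values of the 6 called genes lay within 0.0056 to 0.0334.

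**Figure D3:**
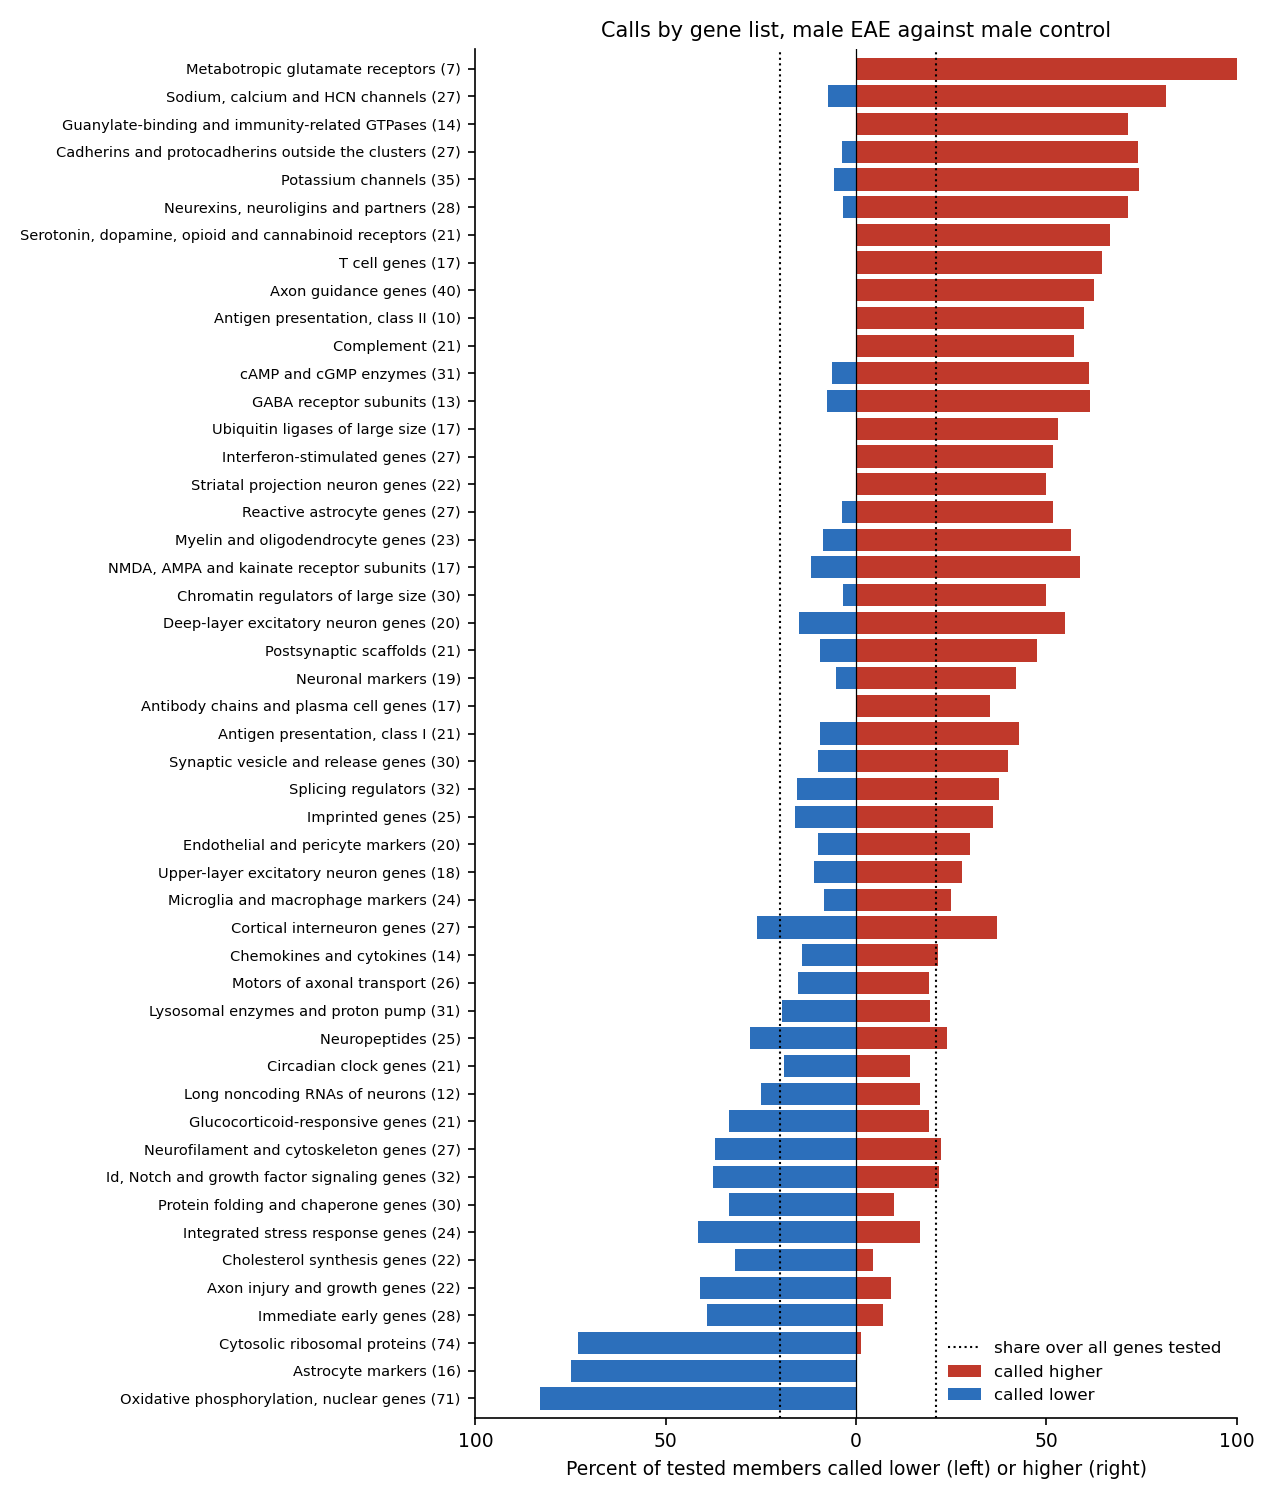
Percent of the tested members of each of 49 gene lists that were called higher (red, right of 0) and lower (blue, left of 0) in male EAE against male control mice, with the number tested beside each name. Dotted lines mark the shares over all 20924 genes (21.0% higher and 19.9% lower). Metabotropic glutamate receptors, ion channels and adhesion genes reach furthest to the right, and oxidative phosphorylation, ribosomal protein and astrocyte genes furthest to the left.

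Markers of neuron classes moved in both directions. Among 19 general neuronal markers 8 were higher and 1 lower. Rbfox3, which encodes the nuclear marker NeuN, was the lower one, with 1030, 891, 1165, 963 and 843 CPM in male EAE mice, against 1457, 1267, 1386 and 1649 CPM in male control mice (log2 fold change -0.56 ± 0.11, SE, adjusted p = 0.0056). Tbr1, a transcription factor of deep layers, had 268, 273, 231, 311 and 248 CPM in male EAE mice, against 180, 210, 170 and 127 CPM in male control mice (0.63 ± 0.13, adjusted p = 0.00632). Gad2, an enzyme that makes GABA, had 59.9, 78.8, 51.2, 70.2 and 64.3 CPM in male EAE mice, against 37.1, 43.3, 35.7 and 36.5 CPM in male control mice (0.77 ± 0.12, adjusted p = 0.00554). The groups did not overlap in these 3 genes. Of upper-layer genes 5 of 18 were higher and 2 lower, of deep-layer genes 11 of 20 and 3, and of interneuron genes 10 of 27 and 7. Over all genes 21.0% were higher and 19.9% lower. The growth factor Kitl had 30.7 to 54.2 CPM in male EAE mice and 14.4 to 30.2 CPM in male control mice (1.11 ± 0.20). Rasgrf2 was higher (0.62 ± 0.22) and Lhx2 lower (-0.54 ± 0.13), while Pou3f1 and Pou3f3 were not called. Syt6 of layer 6 was higher (0.61 ± 0.12), and Crym, which binds thyroid hormone, was lower (-0.66 ± 0.16). Hs3st4 and Foxp1 were not called (-0.15 and -0.04). Erbb4, the neuregulin receptor of interneurons, was higher (0.83 ± 0.21), and Calb2 (calretinin) and the peptide precursor Cort were lower (-0.91 ± 0.25 and -0.90 ± 0.29). The transcription factor Dlx1 was not called (-0.06). Pvalb, which encodes parvalbumin and was added because of the staining, had 48.5, 40.4, 58.8, 30.4 and 38.1 CPM in male EAE mice, against 68.9, 62.01, 60.9 and 93.1 CPM in male control mice and was lower (-0.72 ± 0.18, adjusted p = 0.0102). Across the 8 called genes in this second group, the adjusted p was 0.0056 to 0.0472. Without EAE 4, or without control 3, 5 of the general markers were called higher. Without control 2 the upper-layer count was 10 higher, without EAE 3 it was 8, and without EAE 5 it was 3. After a length correction 6 upper-layer genes were higher and 5 lower, with a median of -0.03 against 0.20 without it, and the counts were 8 and 2 for deep layers and 9 and 5 for interneurons. The call of Rasgrf2 was lost without EAE 4, EAE 5 or control 1 (adjusted p = 0.104 to 0.121), and that of Cort without control 1 (adjusted p = 0.102).

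Of 25 neuropeptide genes 6 were higher and 7 lower (median log2 fold change -0.12), shares near the 21.0% and 19.9% over all genes. Scg2, a granin of secretory vesicles, had 216, 267, 178, 296 and 227 CPM in male EAE mice, against 143, 135, 143 and 129 CPM in male control mice (log2 fold change 0.78 ± 0.13, SE). Pdyn, the precursor of dynorphins, had 26.8, 50.4, 24.7, 29.0 and 35.3 CPM in male EAE mice, against 18.4, 14.3, 16.1 and 23.3 CPM in male control mice (0.88 ± 0.21). Trh, the precursor of thyrotropin-releasing hormone, had 4.77, 3.86, 11.1, 3.92 and 7.70 CPM in male EAE mice, against 8.99, 7.84, 15.8 and 16.5 CPM in male control mice (-0.96 ± 0.32). The groups overlapped only in Trh of these 3. Their adjusted p ranged over 0.00554 to 0.0342, and Vgf, a peptide precursor induced by nerve growth factor, was not called (0.21 ± 0.08). After a length correction 10 peptide genes were higher and 4 lower.

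Astrocyte genes were lower in the neuronal pull-down of male EAE mice. Of 16 astrocyte markers 0 were higher and 12 lower (median log2 fold change -0.60). S100b, a calcium-binding protein (ENSMUSG00000033208, chr10:76253853-76261159), had 324, 284, 429, 253 and 292 CPM in male EAE mice, against 710, 495, 588 and 1289 CPM in male control mice (log2 fold change -1.28 ± 0.24, SE). Glul, glutamine synthetase, had 2711, 2466, 3398, 2499 and 2384 CPM in male EAE mice, against 4391, 4004, 4221 and 6699 CPM in male control mice (-0.84 ± 0.15). Aldoc, a glycolytic aldolase, had 1313, 1132, 1803, 1125 and 1100 CPM in male EAE mice, against 2522, 1968, 2138 and 3936 CPM in male control mice (-1.03 ± 0.20). Control 4 had the highest value in all 3 and EAE 3 the highest of the EAE mice, and the groups did not overlap. Ntsr2 (-0.75 ± 0.16), Sox9 (-0.74 ± 0.13), Aldh1l1 (-0.68 ± 0.13), Slc1a3 (-0.35 ± 0.08) and Aqp4 (-0.26 ± 0.09) were lower too. Gfap, the filament protein that rises in reactive astrocytes, had 222, 298, 456, 154 and 206 CPM in male EAE mice, against 347, 274, 288 and 511 CPM in male control mice and was not called (-0.41 ± 0.27), nor were Slc1a2 (-0.07 ± 0.11) and Gja1 (-0.23 ± 0.08). For the 8 called genes the adjusted p was 0.00554 to 0.0469. Summed over 7 markers the level was 1206 to 1759 CPM in male EAE and 1873 to 2672 CPM in male control mice. With a length correction 15 of the 16 were lower. The call of Aqp4 was lost without EAE 1, EAE 3 or control 2 (adjusted p = 0.0822 to 0.121), and without either of these EAE mice its log2 fold change missed the 0.25 required. Conversely, Gfap was called lower without EAE 3, and Gja1 without EAE 4, EAE 5 or control 1.

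Genes known to rise in reactive astrocytes were higher in 14 of 27 and lower in 1 (median log2 fold change 0.53). Ptgs2, the cyclooxygenase that neurons also make, had 4.52, 4.25, 3.78, 7.28 and 5.37 CPM in male EAE mice, against 2.33, 3.47, 2.90 and 2.04 CPM in male control mice (log2 fold change 0.90 ± 0.21, SE). Ggta1, a galactosyltransferase, had 1.51 to 3.83 CPM in male EAE mice and 0.8291 to 1.66 CPM in male control mice, and Fbln5, a protein of elastic fibres, 1.44 to 2.28 CPM in male EAE mice and 0.831 to 1.23 CPM in male control mice. Serpina3n, a protease inhibitor, had 99.1, 59.5, 107, 10.8 and 91.4 CPM in male EAE mice, against 80.5, 83.5, 82.8 and 66.9 CPM in male control mice and was not called (-0.09 ± 0.43). EAE 4 stood far below the other mice in Serpina3n. The adjusted p of the 3 called genes ranged over 0.00831 to 0.0354. In a fit limited to genes with a mean log2 CPM above 1, 9 of the list remained, 3 higher and 1 lower (median -0.04). Without EAE 3, 10 of the 27 were higher and 3 lower, and with a replicate block 9 were higher. Ggta1 was not called without EAE 3 and control 4 together.

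Myelin genes were higher in 13 of 23 and lower in 2 (median log2 fold change 0.31). Ugt8a, which makes the galactolipid of myelin, had 21.6, 25.9, 17.8, 24.1 and 29.8 CPM in male EAE mice, against 10.2, 14.9, 13.02 and 10.3 CPM in male control mice (log2 fold change 0.98 ± 0.16, SE). Cldn11, the claudin of myelin, had 154, 234, 148, 159 and 156 CPM in male EAE mice, against 94.6, 103, 118 and 112 CPM in male control mice (0.67 ± 0.13), and Mag, a glycoprotein next to the axon, 111, 142, 109, 117 and 114 CPM in male EAE mice, against 76.3, 84.9, 102 and 76.1 CPM in male control mice (0.48 ± 0.11). No values overlapped between the groups in these 3 genes, and EAE 2 was highest in Cldn11 and Mag. Enpp2 and Mobp were also higher (0.66 ± 0.11 and 0.30 ± 0.12). Olig1, a transcription factor of the lineage, had 397, 348, 444, 331 and 369 CPM in male EAE mice, against 502, 462, 533 and 727 CPM in male control mice (-0.56 ± 0.13). Mbp, Mog and Cnp were not called (-0.02 ± 0.08, 0.13 ± 0.14 and -0.10 ± 0.11). Adjusted p values of the 6 called genes lay within 0.00554 to 0.0749. The summed level of 7 oligodendrocyte markers was 6389 to 7880 CPM in male EAE and 5949 to 6722 CPM in male control mice, overlapping. The call of Mobp was lost without EAE 1, EAE 2, EAE 4, control 1, control 2 or control 3 (adjusted p = 0.115 to 0.176).

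Markers of microglia and macrophages were higher in 6 of 24 and lower in 2 (median log2 fold change 0.33). The share called higher was near the 21.0% over all genes, of which 19.9% were lower. Lyz2, lysozyme of myeloid cells, had 0.832, 5.58, 5.56, 1.30 and 1.74 CPM in male EAE mice, against 0.413, 0.548, 0.460 and 0.477 CPM in male control mice (log2 fold change 2.65 ± 0.59, SE, adjusted p = 0.00713). Apoe, a lipid carrier of glia, had 2820, 2947, 3341, 2649 and 2545 CPM in male EAE mice, against 3918, 3494, 3782 and 5207 CPM in male control mice (-0.52 ± 0.12, adjusted p = 0.00809), and the receptor Axl was lower (-0.42 ± 0.10, adjusted p = 0.0087). Markers of resting microglia were at low levels and not called: Tmem119 had 1.04 to 3.63 CPM in male EAE mice and 1.16 to 1.91 CPM in male control mice, P2ry12 0.806 to 2.98 CPM in male EAE mice and 0.553 to 1.81 CPM in male control mice, Cx3cr1 1.79 to 4.73 CPM in male EAE mice and 2.13 to 3.17 CPM in male control mice and Aif1 0.869 to 1.65 CPM in male EAE mice and 0.893 to 1.32 CPM in male control mice. Csf1r and Ctsd were not called (-0.09 and -0.03). The summed level of 7 microglial markers was 31.9 to 44.5 CPM in male EAE and 32.6 to 38.9 CPM in male control mice, which overlap. Without EAE 2, or without EAE 3, 3 of the markers were called higher, and the median was 0.56 with a length correction and 0.21 without EAE 4. Of 20 endothelial and pericyte markers 6 were higher and 2 lower (median 0.42). Cldn5, the claudin of the blood-brain barrier, had 1.61, 2.15, 2.29, 2.37 and 2.73 CPM in male EAE mice, against 1.42, 1.46, 0.963 and 1.10 CPM in male control mice (0.84 ± 0.19), and Vtn (vitronectin) 1.01, 1.59, 1.95, 1.68 and 1.73 CPM in male EAE mice, against 0.999, 0.863, 0.777 and 0.779 CPM in male control mice (0.89 ± 0.20). Rgs5 of pericytes and the adhesion molecule Icam1 were higher (0.50 ± 0.17 and 0.44 ± 0.18), and Pecam1 and Flt1 were not called (0.40 and 0.30). These 4 called genes had an adjusted p of 0.00742 to 0.0737. Of 5 vascular markers 2 were higher and 1, Pdgfrb of pericytes, was lower, and their summed level was 24.3 to 29.6 CPM in male EAE and 16.4 to 26.4 CPM in male control mice. In a fit limited to genes with a mean log2 CPM above 1, 6 vascular genes remained, 1 higher and 2 lower (median -0.04). Of the 7 microglial genes that remained there, 1 was higher and 2 lower (median -0.03). Icam1 was not called without EAE 2, EAE 3, EAE 5, control 3 or control 4 (adjusted p = 0.108 to 0.192), and without EAE 5 the median of the vascular list was 0.23.

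Immediate early genes, which neurons switch on within minutes of activity, were lower in 11 of 28 and higher in 2 (median log2 fold change -0.39). Fos had 47.1, 13.6, 22.1, 39.6 and 38.5 CPM in male EAE mice, against 66.1, 95.7, 46.6 and 54.3 CPM in male control mice (log2 fold change -1.03 ± 0.31, SE). Egr2 had 10.1, 3.62, 4.52, 10.8 and 12.6 CPM in male EAE mice, against 14.7, 22.4, 12.8 and 12.8 CPM in male control mice (-0.91 ± 0.32), and Ier2 18.2, 12.8, 12, 13.1 and 13.9 CPM in male EAE mice, against 22.3, 38.1, 15.9 and 27.9 CPM in male control mice (-0.90 ± 0.21). EAE 2 and EAE 3 had the lowest values of Fos and Egr2, and control 2 the highest. Gadd45b, an activity-induced gene of DNA demethylation, had 17.9, 15.8, 16.1, 15.2 and 14.1 CPM in male EAE mice, against 26.4, 28.6, 24.5 and 34.1 CPM in male control mice (-0.84 ± 0.11) and no overlap. Junb, a partner of Fos, had 254, 136, 152, 190 and 199.7 CPM in male EAE mice, against 302, 424, 232 and 287 CPM in male control mice (-0.74 ± 0.19). Egr1 had 867, 414, 548, 931 and 599 CPM in male EAE mice, against 857, 737, 794 and 678 CPM in male control mice and Arc, a gene of synaptic scaling, 293, 118, 129, 230 and 265 CPM in male EAE mice, against 335, 469, 244 and 209 CPM in male control mice, and neither was called (-0.19 and -0.60). Across the 5 called genes, the adjusted p was 0.00554 to 0.0417. Without control 2, Egr2 was not called (adjusted p = 0.103), and 8 immediate early genes were lower with a median of -0.19.

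Genes listed as responsive to glucocorticoids, receptors for such hormones included, were lower in 7 of 21 and higher in 4 (median log2 fold change -0.23). Nfkbia, the inhibitor of NF-κB, had 23.7, 14.9, 28.1, 17.8 and 16.6 CPM in male EAE mice, against 57.9, 30.7, 36.0 and 61.2 CPM in male control mice (log2 fold change -1.2 ± 0.23, SE). Mt1, a metallothionein that binds zinc, had 400, 452, 538, 308 and 267 CPM in male EAE mice, against 860, 459, 643 and 1866 CPM in male control mice (-1.28 ± 0.34), and its relative Mt2 had 115, 197, 172, 89.8 and 87.7 CPM in male EAE mice, against 306, 158, 248 and 725 CPM in male control mice (-1.44 ± 0.38). Control 4 had the highest value in all 3, and control 2 lay within the EAE range for Mt1 and Mt2. The 4 higher ones, named after their values were seen, were the transcription factor Zbtb16 (0.63 ± 0.26), the glucocorticoid receptor Nr3c1 (0.39 ± 0.14), the mineralocorticoid receptor Nr3c2 (0.49 ± 0.16) and Lcn2, lipocalin-2, which had 0.0260, 0.585, 0.234, 0.0988 and 0.149 CPM in male EAE mice, against 0, 0.0203, 0.0328 and 0 CPM in male control mice. Their adjusted p was 0.00771 to 0.0808. The call of Nr3c1 was lost without EAE 4, EAE 5, control 1, control 3 or control 4 (adjusted p = 0.106 to 0.129), and that of Zbtb16 without EAE 3, EAE 4, control 1 or control 2 (adjusted p = 0.127 to 0.234). Angptl4 was lower (-0.72 ± 0.24), and Klf9 and Per1 were not called (-0.23 and -0.16). Of 21 clock genes 3 were higher and 4 lower, neither share above the 21.0% and 19.9% over all genes. Clock, a core activator of the clock, had 37.9, 36.9, 31.4, 46.6 and 44.0 CPM in male EAE mice, against 19.7, 27.6, 18.5 and 12.8 CPM in male control mice (1.0 ± 0.19). Dbp, an output gene of the clock, had 260, 336, 260, 200.5 and 220 CPM in male EAE mice, against 454, 403, 460 and 595 CPM in male control mice (-0.91 ± 0.15). Neither gene overlapped between the groups. Ciart was lower (-0.61 ± 0.15) and Nr1d2 higher (0.56 ± 0.13), and Tef and Hlf were not called (-0.05 and 0.21). For the 8 called genes the adjusted p was 0.00554 to 0.0351. Without EAE 3, 7 clock genes were higher and 8 without control 2, against 7 with upper-quartile scaling, and without EAE 4, 2 of the glucocorticoid genes were higher. The labels give no time of day for the mice.

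Stress and injury genes were more often lower than higher. Of 24 genes of the integrated stress response 4 were higher and 10 lower (median log2 fold change -0.13), and of 22 genes that rise in injured neurons 2 and 9 (median -0.26). Ddit3 (CHOP) had 53.4, 36.4, 61.2, 42.9 and 43.8 CPM in male EAE mice, against 76.8, 66.4, 89.5 and 132 CPM in male control mice (log2 fold change -0.94 ± 0.19, SE). Nupr1, a nuclear stress protein, had 11.5, 5.12, 12.9, 5.87 and 7.95 CPM in male EAE mice, against 16.9, 16.0, 19.7 and 35.3 CPM in male control mice (-1.34 ± 0.29). Phgdh, the first enzyme of serine synthesis, had 7.33, 8.34, 9.68, 6.19 and 7.78 CPM in male EAE mice, against 15.8, 12.97, 14.8 and 22.7 CPM in male control mice (-1.07 ± 0.17). The groups did not overlap in these 3 genes, and control 4 was the highest each time. Atf5, Csrp1 and Gadd45a were lower (-0.82 ± 0.18, -0.80 ± 0.19 and -0.72 ± 0.19). Adcyap1, the precursor of the peptide PACAP, had 20.1, 20.5, 19.1, 24.1 and 19.2 CPM in male EAE mice, against 14.2, 13.7, 15.3 and 13.6 CPM in male control mice (0.54 ± 0.10). The amino acid transporters Slc3a2 and Slc7a5 and the growth genes Tubb3 and Stmn2 were not called (-0.16, 0.08, -0.06 and -0.10). Chaperone genes were lower in 10 of 30 and higher in 3 (median -0.24), among them Hspa8 (-0.83 ± 0.20), Hspb8 (-0.85 ± 0.20), Cryab (-0.64 ± 0.17) and Pfdn5 (-0.96 ± 0.18). The adjusted p of the 11 called genes ranged over 0.00554 to 0.0141. With a length correction 3 of the injury genes were higher and 5 lower (median -0.10), and the chaperone median was -0.15. Without control 4 the median of the injury genes was -0.09.

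Inhibitors of DNA binding and targets of Notch were among the falls. Of 32 genes of Id, Notch and growth factor signaling 7 were higher and 12 lower (median log2 fold change -0.15). Id1 had 6.79, 7.02, 7.43, 5.87 and 6.82 CPM in male EAE mice, against 14.2, 12.2, 12.1 and 29.6 CPM in male control mice (log2 fold change -1.32 ± 0.24, SE), Id3 31.9, 35.4, 34.4, 24.9 and 33.2 CPM in male EAE mice, against 48.5, 51.7, 59.7 and 135 CPM in male control mice (-1.21 ± 0.26), and Hes5, a Notch target, 29.3, 23.01, 24.8, 20.1 and 26.2 CPM in male EAE mice, against 36.2, 36.4, 41.6 and 80.8 CPM in male control mice (-0.98 ± 0.22). Control 4 had the highest value of all libraries in Id1, Id3 and Hes5, and the other 3 controls still lay above every EAE mouse. Igfbp2, which binds insulin-like growth factors, had 38.0, 28.8, 41.6, 35.7 and 42.2 CPM in male EAE mice, against 61.9, 64.2, 70.8 and 97.6 CPM in male control mice (-0.98 ± 0.15). Id2 and Igfbp5 were not called (-0.14 and 0.12). Adjusted p values of the 4 called genes lay within 0.00554 to 0.00713. The median of the list was -0.07 with a length correction and -0.06 without control 2.

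Genes of small, abundant proteins were lower in most cases. Of 71 nuclear genes of oxidative phosphorylation 0 were higher and 59 lower (median log2 fold change -0.65), and of 74 cytosolic ribosomal protein genes 1 and 54 (median -0.54). Ndufa2, a subunit of complex I, had 45.2, 38.9, 51.4, 35.0 and 40.9 CPM in male EAE mice, against 80.5, 63.4, 74.5 and 136 CPM in male control mice (log2 fold change -1.06 ± 0.19, SE). Atp5e of the ATP synthase had 28.8, 28.5, 41.1, 19.3 and 32.8 CPM in male EAE mice, against 64.4, 48.4, 57.6 and 97.2 CPM in male control mice (-1.15 ± 0.22), and Rpl32 22.6, 20.3, 29.4, 17.9 and 24.8 CPM in male EAE mice, against 46.7, 37.7, 43.5 and 70.5 CPM in male control mice (-1.11 ± 0.18). Control 4 had the highest control value in 65 of the 71 oxidative phosphorylation genes and 64 of the 74 ribosomal protein genes. Sdha of complex II and Atp5a1 were not called (-0.08 ± 0.08 and -0.15 ± 0.07), nor were Rpl15 and Rpl28 (0.01 and -0.11). Atp5j2 and Ndufa3 (-1.08 and -1.06) and Rpl26, Rps21 and Rpl14 (-1.17, -1.09 and -1.06) were among the falls, and the adjusted p of the 8 called genes ranged over 0.00554 to 0.00713. These genes are short (median exon length 1801 and 1805 bases), ribosomal protein genes have many pseudogene copies that can share their reads, and with a length correction 50 and 43 of them were lower (medians -0.41 and -0.36). Of 22 cholesterol synthesis genes 1 was higher and 7 lower. Mvd, which makes isopentenyl diphosphate, had 20.4, 18.7, 23.6, 19.8 and 19.4 CPM in male EAE mice, against 41.0, 35.0, 43.4 and 48.6 CPM in male control mice (-1.04 ± 0.11, adjusted p = 0.00554), and Mvk, Pmvk and Fdps of the same stretch of the pathway were lower (-0.81 ± 0.13, -0.75 ± 0.14 and -0.69 ± 0.14). The regulator Srebf2 and the entry enzyme Hmgcs1 were not called (0.04 ± 0.07 and -0.01 ± 0.12).

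Large nuclear regulators were higher in part as counted, and with a length correction the balance of chromatin and splicing regulators turned. Of 30 chromatin regulators chosen for size 15 were higher and 1 lower (median log2 fold change 0.30), and of 17 large ubiquitin ligases 9 and 0 (median 0.42). The acetyltransferase Ep300 had 27.2, 30.5, 24.5, 39.3 and 34.6 CPM in male EAE mice, against 17.4, 23.9, 18.4 and 10.9 CPM in male control mice (log2 fold change 0.82 ± 0.20, SE), and the methyltransferase Ash1l 81.8, 86.4, 67.9, 111 and 94.5 CPM in male EAE mice, against 48.5, 64.9, 53.6 and 36.1 CPM in male control mice (0.80 ± 0.17). With a length correction 7 chromatin regulators were higher and 8 lower, and 3 ligases higher and 1 lower. Of 32 splicing regulators 12 were higher and 5 lower, against 5 and 12 with the length correction. The splicing count was 7 higher without EAE 4, 6 without control 4, and 5 with a correction for GC content, and without control 2 all but 1 of the 17 ligases (16) were higher. Without control 4 the medians of chromatin regulators and ligases were 0.18 and 0.24. Srrm2, a large splicing protein, had 139 to 222 CPM in male EAE mice and 64.7 to 136 CPM in male control mice without overlap (0.71 ± 0.20), and Ptbp1, which represses neuronal exons, 11.4 to 16.3 CPM in male EAE mice and 18.7 to 27.9 CPM in male control mice (-0.63 ± 0.14). Across the 4 called genes, the adjusted p was 0.00631 to 0.0175.

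Calls varied with gene length across the whole table. Genes called higher had a median exon length of 5510 bases, genes called lower 2662 and genes not called 3002. In 5 bins of exon length, from the shortest to the longest, of the 12893 genes above that level, the share called higher was 10.9%, 15.2%, 23.2%, 32.9% and 49.2%, and the share called lower was 52.3%, 36.0%, 25.1%, 16.2% and 9.7%. The slope per library, given above, was steepest in EAE 4 (0.376) and flattest in control 4 (0.0611), with control 2 at 0.2612 and EAE 3 at 0.262 side by side. With the length correction 4440 genes were called higher and 3631 lower, and 6446 of these were among the 8546 called without it. Protein-coding genes were called higher in 23.4% and lower in 21.8% of 15875, and processed pseudogenes in 10.5% and 20.6% of 1557.

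**Figure D4:**
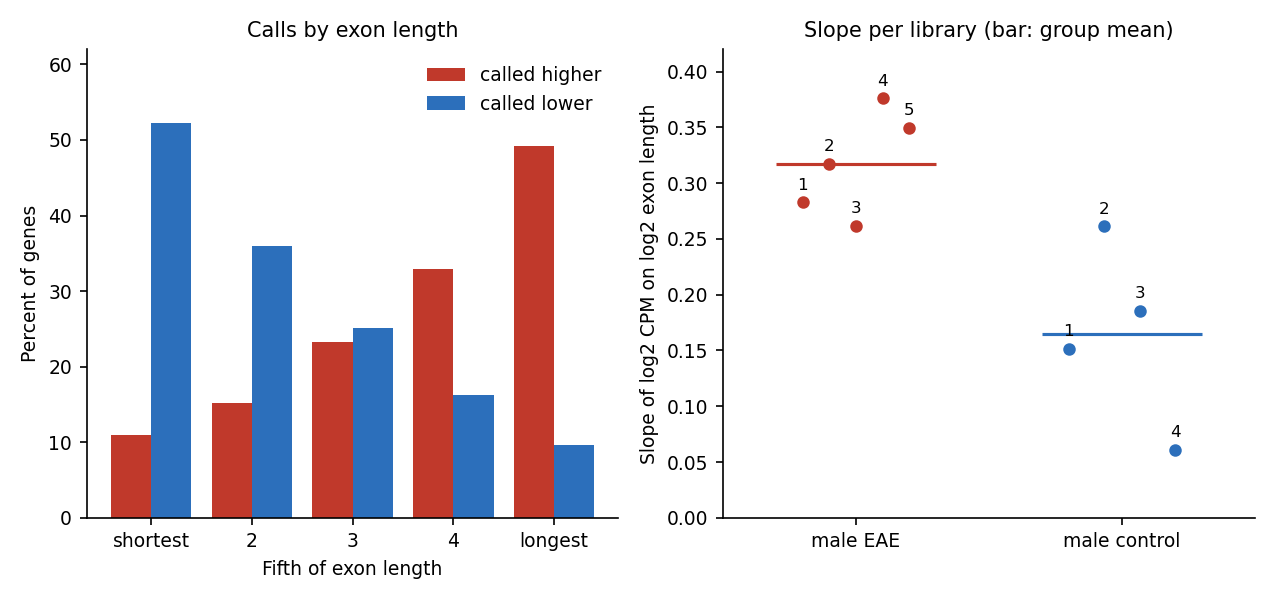
Left, percent of genes called higher (red) and lower (blue) in male EAE against male control mice in 5 bins of exon length, shortest to longest, of the 12893 genes whose mean log2 CPM exceeded 1. Right, slope of log2 CPM on log2 exon length in each library, male EAE (red) left of male control (blue), with mouse numbers. The share called higher climbs from 10.9% to 49.2%, and every EAE slope (0.262 to 0.376) is above every control slope (0.0611 to 0.2612).

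The most abundant calls were taken among genes without overlap between the groups, at a mean log2 CPM above 1, with predicted genes left out. Those called higher were Nptxr, Spock2, Syt1, Cx3cl1, Rtn3 and Ppp3r1. Nptxr, a receptor of pentraxins at excitatory synapses, averaged 2057 ± 130 CPM in the 5 male EAE mice and 1679 ± 264 CPM in the 4 male control mice (SD). Spock2, a proteoglycan, averaged 1675 ± 113 CPM in the 5 male EAE mice and 1248 ± 138 CPM in the 4 male control mice (SD). Their log2 fold changes were 0.29 ± 0.11 and 0.42 ± 0.09 (SE), with Rtn3 at 0.41 ± 0.09 and the calcineurin subunit Ppp3r1 at 0.40 ± 0.09. The most abundant genes called lower under these limits were Glul, Apoe, Ptms, Aldoc, Hsp90ab1 and Ndrg2. Ptms, parathymosin, averaged 2055 ± 331 CPM in the 5 male EAE mice and 3436 ± 865 CPM in the 4 male control mice (SD), and Ndrg2, an astrocyte protein, 1022 ± 226 CPM in the 5 male EAE mice and 2055 ± 838 CPM in the 4 male control mice (SD). Their log2 fold changes were -0.74 ± 0.16 and -1.01 ± 0.22, and Hsp90ab1, a cytosolic chaperone, had -0.58 ± 0.14. The 6 rises lay within 0.29 to 0.58 and the 6 falls within -1.03 to -0.52. For the 7 genes not named before the adjusted p was 0.00632 to 0.0479. The call of Nptxr was lost without EAE 4, control 1 or control 4 (adjusted p = 0.108 to 0.132).

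Genes with the narrowest intervals bound how stable a transcript was. Chst1, a sulfotransferase, had 600, 583, 574, 600 and 587 CPM in male EAE mice, against 577, 550, 578 and 573 CPM in male control mice (95% interval of the log2 fold change -0.09 to 0.19). Map4, a microtubule-associated protein, had an interval of -0.11 to 0.17, though with a length correction it was lower (log2 fold change -0.32), and Tollip, an adaptor of innate signaling, one of -0.12 to 0.16. Prnp, the prion protein, had 1359, 1350, 1308, 1354 and 1293 CPM in male EAE mice, against 1230, 1245, 1228 and 1231 CPM in male control mice (interval -0.03 to 0.25), so its groups did not overlap although the difference was too small and uncertain to be called. None of these 4 intervals held a fall beyond -0.25, and the rise they allowed ended at 0.25.

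**Figure D5:**
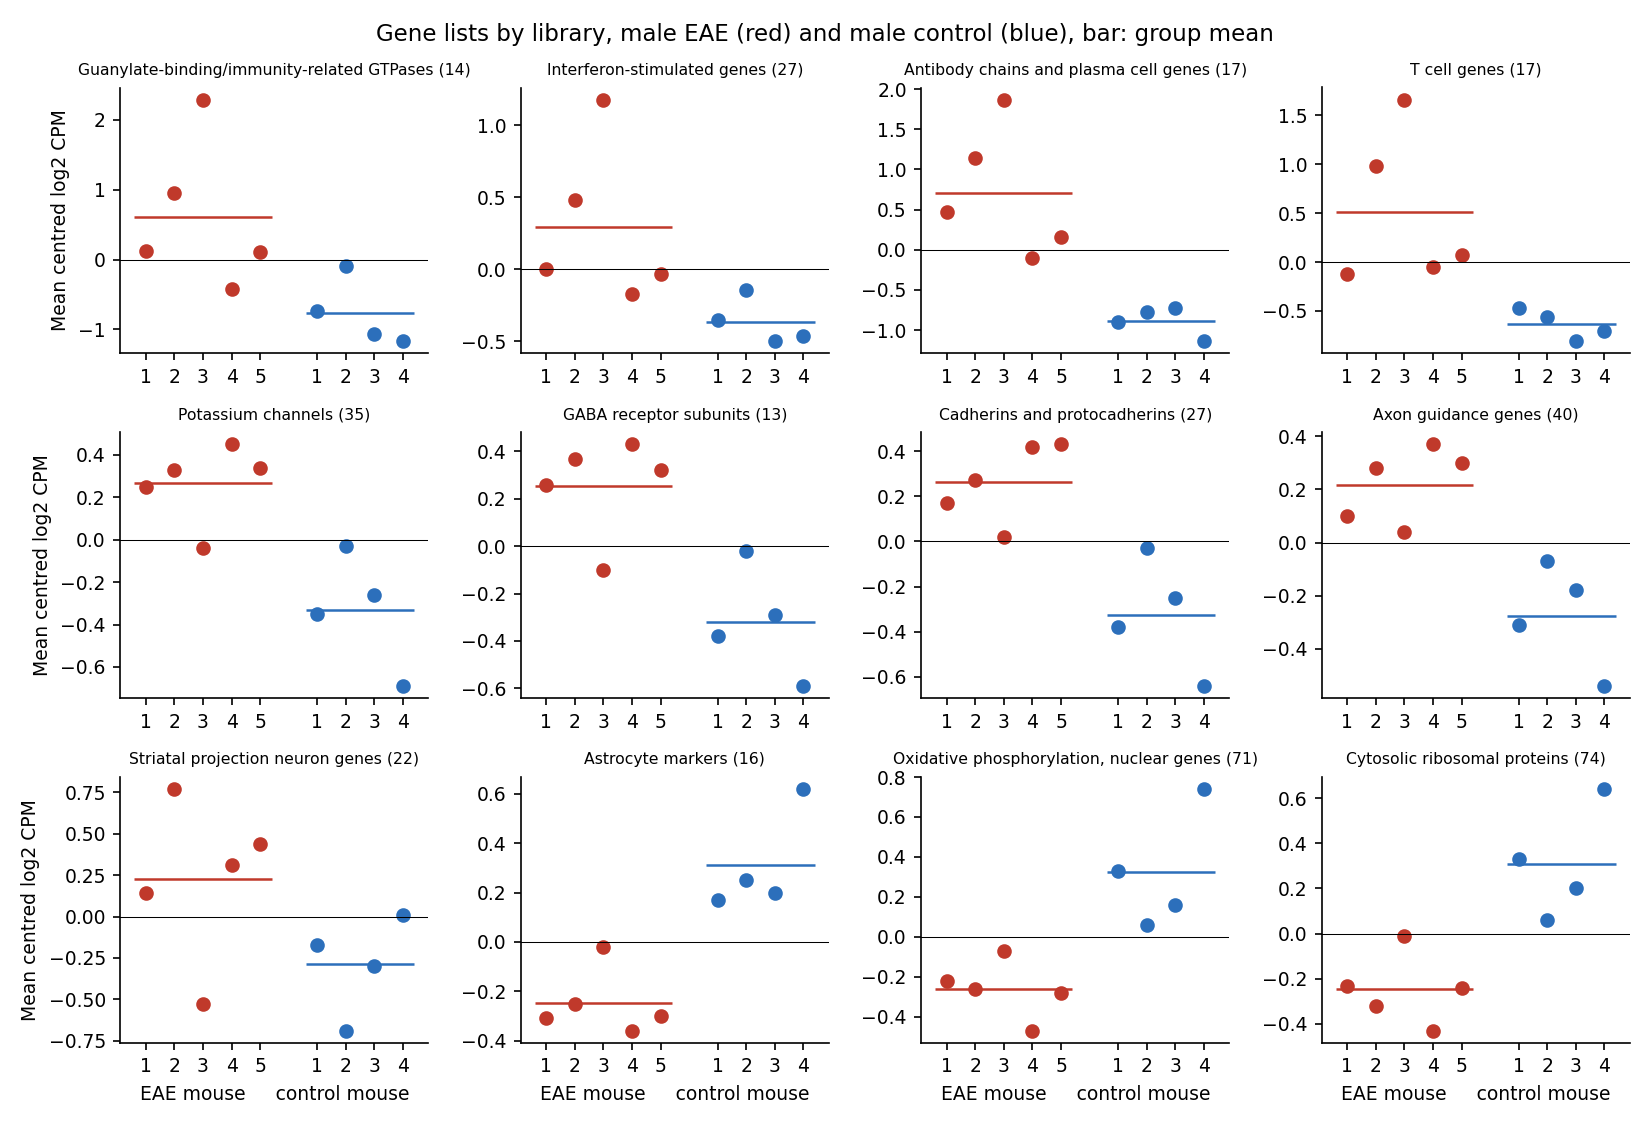
Mean over the tested members of 12 gene lists of log2 CPM centred on the 9 libraries, 1 panel per list, with male EAE mice 1 to 5 (red) left of male control mice 1 to 4 (blue) and bars at the group means. EAE 3 is the highest EAE mouse for interferon-stimulated genes, GTPases, antibody and T cell genes (1.18, 2.29, 1.87 and 1.66) and the lowest for potassium channels (-0.04) and striatal genes (-0.53). Control 4 is the lowest control for potassium channels (-0.69) and the highest for oxidative phosphorylation (0.74) and astrocyte genes (0.62).

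The response of males was set against that of females with a test of the difference itself, in all 17 libraries. No gene had an adjusted p under 0.1 for male minus female (edgeR's quasi-likelihood test, smallest adjusted p = 0.338), with 939 genes (4.49%) at an unadjusted p under 0.05. DESeq2 called 3 genes for this difference, the likelihood ratio test of edgeR 5 and limma voom 0. Without female EAE 4, edgeR's quasi-likelihood test called 4. Of the 8546 genes called in males, 8072 had log2 fold changes of 1 sign in both sexes. The median absolute log2 fold change of the 8546 was 0.55 in males and 0.3 in females. These genes were chosen by the male result, which favors a larger male value. In females 18 genes were called. The smallest p values for the difference were those of Gm10309, Gadd45b and Junb, with log2 fold changes of 1.68, -0.84 and -0.74 in males and -2.27, 0.02 and 0.75 in females. By the quasi-likelihood test on all 17 libraries, a call in males and none in females is not shown to be a difference between the sexes.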

How the data were processed

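Cortical RNA bound to HA-tagged ribosomes was sequenced from 17 mice, and the 9 male libraries were compared, 5 male EAE against 4 male control. Whole-number counts per gene were deposited by the authors. Per the labels and the study's methods, reads were made with bcl2fastq (2.17), checked with FastQC, trimmed with Trimmomatic and aligned to mm10 with QuasR after a polyA-selected, stranded preparation, and the annotation release and strand setting are not given in the sources used here. Total counts were 70613567 to 98433383 per male library. Reads carry no molecular identifiers, so a count floor or interval covers counting error only. Columns that could not be tied to a sample numbered 0.

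Gene names, chromosomes and lengths came from GENCODE (mouse release M21, GRCm38). Of 39017 gene IDs 1324 had no match there, and the 432 of them that passed the filter held 0.591% of male counts and were left out for want of a chromosome. EdgeR (4.0.16, R 4.3.3) was run with TMM factors and glmQLFTest on autosomal genes with at least 1 count in 5 or more of 9 libraries, with the Benjamini-Hochberg adjustment, and calls needed a false discovery rate under 0.1 and a log2 fold change beyond 0.25, after the study's own thresholds. The fitting code was tested on simulated data. P-values measure the spread between mice as labelled, 1 library each. Single values per library were compared with exact permutation tests in SciPy (1.17.1). Alternatives used DESeq2 (1.42.0), limma (3.58.1), a surrogate variable (sva 3.50.0), other scaling and filters, offsets for gene length and GC content, and each library left out. Leaving out both EAE 3 and control 4 was chosen after seeing the data.

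Members and gene lists were chosen with earlier results of these data known. Named genes are the 12 largest rises and falls without overlap at a mean log2 CPM above 1, up to 4 called and 2 uncalled genes per list, the markers, the 6 most abundant calls in each direction under the limits of the largest changes, the 4 narrowest intervals among uncalled genes and the 3 smallest p for male minus female. Predicted genes (symbols of Gm and a number or ending in Rik) were left out of the largest changes and the most abundant calls. Pvalb and 4 glucocorticoid-responsive genes (Zbtb16, Nr3c1, Nr3c2 and Lcn2) were added after their values were seen, and some genes that this rule names are not reported here. Genes with near-identical copies (H2, antibody, Gbp, Irg, C4 and ribosomal protein genes) may share reads.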

Additional observations from a re-analysis of the deposited data

Results flagged for a closer look

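An outlying library was looked for in each group and gene named in the text, by Dixon's test at its 95% critical value. Of 582 groups tested 35 had such a library, and chance gives about 1 in 20. Each value is the CPM of the library that stood apart, with the nearest of its own group after it.

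Male EAE 2 was above the rest of its group in Cldn11 at 234 CPM (next 159), Mag at 142 CPM (next 117) and Mog at 92.6 CPM (next 64.2).

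Male EAE 3 was above the rest of its group in Aif1 at 1.65 CPM (next 0.947), Cd3e at 1.403 CPM (next 0.432), Cd3g at 0.338 CPM (next 0.0975), Cd79a at 0.169 CPM (next 0.0557), Gbp7 at 6.09 CPM (next 3.09), Igf2 at 8.63 CPM (next 4.04), Igha at 89.3 CPM (next 25.5), Igkc at 93.3 CPM (next 21.96), Jchain at 21.2 CPM (next 5.15), Mir7654 at 3.82 CPM (next 2.26) and Oasl2 at 8.61 CPM (next 2.94). Male EAE 3 was below the rest of its group in Chrm3 at 18.3 CPM (next 33.5).

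Male EAE 4 was above the rest of its group in Adcyap1 at 24.1 CPM (next 20.5).

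Male EAE 5 was above the rest of its group in Csf1 at 22.3 CPM (next 21.1). Male EAE 5 was below the rest of its group in Slc7a5 at 39.6 CPM (next 43.2) and Tollip at 203 CPM (next 212).

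Male control 2 was above the rest of its group in Prnp at 1245 CPM (next 1231). Male control 2 was below the rest of its group in Il34 at 57.1 CPM (next 65.0).

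Male control 4 was above the rest of its group in Foxp1 at 209 CPM (next 176), Glul at 6699 CPM (next 4391), Hes5 at 80.8 CPM (next 41.6), Id1 at 29.6 CPM (next 14.2), Id3 at 135 CPM (next 59.7), Il33 at 112 CPM (next 84.3), Mobp at 874 CPM (next 752), Ptbp1 at 27.9 CPM (next 19.3), Rpl22 at 91.9 CPM (next 73.2), Sox9 at 178 CPM (next 126) and Tst at 238 CPM (next 132). Male control 4 was below the rest of its group in Kcnj4 at 214 CPM (next 254), Rgs5 at 6.56 CPM (next 11.9) and Slc17a7 at 1539 CPM (next 1878).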

How the results depend on the processing

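The 8546 calls (4389 higher and 4157 lower) became 56 with 1 surrogate variable as a covariate (37 higher and 19 lower, 55 of them shared), and 48 of 49 lists then had a count of calls moved by more than 1.5 times. Of 287 genes named here 193 were called, and there 175 lost the call with the sign of their estimate kept. Another 7 lost it with estimates that turned or reached 0: Bsn (0.00), Dlg2 (-0.08), Dynll1 (0.03), Mt1 (0.13), Mt2 (0.06), Nptxr (0.00) and Rasgrf2 (-0.13). With the gene length offset Dlg4 stood at -0.33 and Map4 at -0.32, against positive values without it. The cause was not tested.

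With a replicate block 5501 genes were called (2820 higher and 2681 lower, 5461 shared), 17 of 49 lists moved by more than 1.5 times, and 18 of the named genes lost their call. Same-numbered libraries had correlations of 0.005, 0.127, -0.282 and -0.549, so the numbers were not taken to pair mice, and the block called 0 genes for male minus female. In that comparison, with 0 calls by the quasi-likelihood test, DESeq2 called 3, the likelihood ratio version of edgeR 5 and voom 0, and leaving out single libraries gave 0 to 4, with 4 without female EAE 4.

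Leaving out single male libraries gave 6960 calls (without control 4) to 9565 (without control 2), and leaving out both EAE 3 and control 4 gave 3910 higher and 4035 lower. Named genes that gained a call when a single library was left out were Arc, Camk2a, Cd3d, Cd79a, Gfap, Gja1, Grik5 and Hlf. Klf9, Mzb1, Penk, Pou3f1, Ppp1r1b, Prkar1b and Tmem119 gained a call likewise. Upper-quartile factors gave 4906 higher and 3694 lower, library totals alone 4970 and 3565, the length offset 4440 and 3631, and all chromosomes 4290 and 4791. With a mean log2 CPM above 1 required, 3505 were higher and 3656 lower, and 11 lists moved. Other tests, filters and scalings stayed within 1.5 times of the main count. Total counts differed by -18096161 between male EAE and male control libraries, and by -17446672 over autosomal genes alone.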

Other observations

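Imprinted genes, of which only the copy from 1 parent is active, were higher in 9 of 25 and lower in 4 (median log2 fold change 0.20). Usp29 had 7.42, 7.95, 6.38, 10.5 and 8.53 CPM in male EAE mice, against 2.72, 5.05, 3.17 and 1.75 CPM in male control mice (log2 fold change 1.35 ± 0.24, SE). Nnat, neuronatin, had 231, 245, 344, 172 and 190 CPM in male EAE mice, against 516, 290, 437 and 830 CPM in male control mice (-1.13 ± 0.26). The groups did not overlap in Usp29, and control 4 was the highest library in Nnat. Igf2, a growth factor made by meninges and vessels, had 2.60, 3.20, 8.63, 4.04 and 3.50 CPM in male EAE mice, against 2.34, 3.71, 1.88 and 1.94 CPM in male control mice (0.82 ± 0.34). The adjusted p of these 3 genes ranged over 0.0056 to 0.0744 (edgeR's quasi-likelihood test). The call of Igf2 was lost without EAE 3, EAE 4, control 1, control 3 or control 4 (adjusted p = 0.106 to 0.171). With control 4 left out, 5 imprinted genes were higher, and with a length correction 7 were higher and 6 lower (median -0.07). The median was 0.05 without EAE 3, 0.07 without EAE 5, 0.09 without EAE 4 and 0.10 without EAE 2.

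Cytoskeletal genes were lower in 10 of 27 and higher in 6. Tuba1b, a tubulin of growing neurons, had 51.2 to 76.5 CPM in male EAE mice and 98.2 to 142 CPM in male control mice, and Tubb2b, another, 60.2 to 93.4 CPM in male EAE mice and 118 to 147 CPM in male control mice, neither with overlap (log2 fold changes -0.88 ± 0.13 and -0.82 ± 0.12, SE). The filament protein Prph was lower too (-0.84 ± 0.17), whereas the adult tubulins Tubb4a and Tuba4a were not called (-0.02 and -0.03). Without EAE 4, or without control 4, 1 cytoskeletal gene was higher. The count of higher genes was 2 without EAE 5 and 3 without control 1 or control 3, and 2 with a length correction, which left 6 lower. Of 26 motor genes of axonal transport 5 were higher and 4 lower, at or under the 21.0% and 19.9% over all genes. The dynein and dynactin subunits Dynlrb1, Dctn3, Dynll1 and Dctn2 were lower (-0.75 ± 0.16, -0.70 ± 0.14, -0.56 ± 0.16 and -0.53 ± 0.10), and the kinesin Kif5a was not called (-0.15). Motor genes called higher numbered 9 without control 2 and 3 without control 4, and with a length correction 5 were higher and 8 lower. Lysosomal genes were higher in 6 of 31 and lower in 6, near the shares over all genes.

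Of 12 long noncoding RNAs of neurons 2 were higher and 3 lower, against 0 and 3 with a length correction. Over all genes 21.0% were higher and 19.9% lower. Meg3 had 235, 214, 827, 739 and 794 CPM in male EAE mice, against 605, 427, 484 and 406 CPM in male control mice, and Malat1 had 120, 99.2, 398, 288 and 331 CPM in male EAE mice, against 337, 182, 180 and 242 CPM in male control mice. EAE 1 and EAE 2 had the lowest values of both RNAs, EAE 3, 4 and 5 the highest of Meg3, and neither RNA was called (0.23 ± 0.37 and 0.07 ± 0.36).

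Outside the autosomes, 217 of 889 X-linked genes were called higher and 132 lower in a fit with every chromosome. Of 30 genes of the mitochondrial genome 0 were higher and 9 lower there. Over all 22287 genes of that fit, 4290 were higher and 4791 lower. Gene IDs without a known chromosome numbered 432, of which 95 were higher and 60 lower. The mitochondrial genome took 0.264% of counts in male EAE and 0.351% in male control mice (means, p = 0.0476 by a two-sided exact permutation test). Its groups overlapped, with 0.1953 to 0.379% in male EAE mice, EAE 3 the highest, and 0.3166 to 0.3792% in male control mice. The 100 most counted genes took 18.6% in male EAE and 20.4% in male control mice (means, p = 0.00794 by the same exact test).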
